A study of Rattus norvegicus with 105 samples.

Results

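The comparison described here set gastrocnemius muscle that had carried aluminum pellets for 3 months against gastrocnemius muscle that had carried tantalum pellets for the same time. It rests on 6 arrays, chosen by their labels as the 3 of aluminum and the 3 of tantalum at 3 months, and the series holds 99 others. Together these form 35 groups of 3. The animals were male Sprague-Dawley rats, about 30 days old on purchase and kept for at least 2 weeks before surgery. Every rat carried 4 cylinders of 1 metal, each 2 mm long and 1 mm wide, with 2 in each hind limb. Tantalum, an inert metal, served as the sham, so the reference muscles had the same operation and also held a foreign body. No unoperated muscle is among the arrays. The design gives 8 rats per metal and month, and each array was hybridised with 250 ng of RNA pooled from 2 to 3 animals. A p-value here therefore measures the spread between pools of rats, which is narrower than that between single rats. The other groups used below were cobalt, copper, depleted uranium, iron, nickel, lead and tungsten at 3 months, and aluminum and tantalum at 1, 6 and 12 months, again with 3 arrays each.

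The gastrocnemius is a mixed muscle in which fast, glycolytic fibres prevail and slow, oxidative fibres are concentrated in deep regions. Slow fibres express their own isoforms of myosin, troponin, tropomyosin and calcium-handling proteins, and the transcription factor Sox6 is known from mice to hold those isoforms down in fast fibres. An implant that stays in tissue draws macrophages, which can fuse into giant cells on its surface, and a fibrous capsule forms around it. Leukocytes take part in that response and also pass through muscle that is regenerating, where Myod1 and Notch ligands such as Jag1 govern muscle stem cells.

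The values are log2 intensities after robust multi-array averaging (RMA), 1 for each probe set and array. All 6 arrays had the fast-muscle profile of this tissue: skeletal actin Acta1 lay between 14.05 and 14.11, creatine kinase Ckm between 13.19 and 13.45 and the fast myosin Myh4 between 13.45 and 13.7, each at or above the 99.9th percentile of probe sets. Array medians were 6.43 to 6.5, and the control probe sets had medians of 4.07 to 4.23, exceeded by 89.6% to 90.5% of the signals on the same array. Correlations between arrays were 0.989 within aluminum, 0.99 within tantalum and 0.983 to 0.99 across the groups. These are correlations over probe sets, which are not independent.

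Aluminum muscle differed from tantalum muscle in 27 of the 22954 probe sets tested, or 0.118% (limma, Benjamini-Hochberg adjusted p below 0.05). Of these, 10 were higher (0.0436% of those tested) and 17 were lower (0.0741%). The genes that fell most are known from leukocytes, and those that rose included a potassium channel, a calcineurin regulator and a surface glycoprotein of T cells. A gene symbol was matched for 24 of the 27, 9 higher and 15 lower. The size of the difference ran from 0.44 to 1.6 on the log2 scale, and 5 of the lower and 2 of the higher probe sets differed at least 2-fold. In 24 of the 27 the 3 aluminum arrays lay wholly on one side of the 3 tantalum arrays. Over all probe sets, 7.68% had every aluminum array above and 9.45% every aluminum array below the tantalum arrays. An unadjusted p below 0.05 was found for 2546 probe sets, or 11.1%.

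The count turned on single arrays. It was 1, 256 and 4 without aluminum replicate 1, 2 or 3, and 0, 1 and 33 without tantalum replicate 1, 2 or 3. Cd53 was the gene left without aluminum replicate 1, and Igbp1b the one left without tantalum replicate 2. Cd53, Slamf6 and Jag1 remained without aluminum replicate 3. Without aluminum replicate 2, 25 of the 27 probe sets remained, but Soat1 did not (adjusted p = 0.0513). Without tantalum replicate 3, 11 remained, among them Cd53, Cybb, Slamf6, Il1rn, Rassf4, Clec5a, Jag1, Cd6, Igbp1b and Cntn2. A fit to the 6 arrays alone called 0 probe sets, with 2544 at an unadjusted p below 0.05, so the calls also draw on the estimate of the spread from the other 99 arrays.

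The genes with the largest falls included surface receptors and enzymes of leukocytes. Promoter sequences of 3 of them are shown, chosen with their matches known, because leukocyte promoters are known for the short core GAGGAA, which the myeloid factor PU.1 binds. The sequences run from 250 bases before to 50 bases after the start of the gene in the RefSeq annotation of the assembly GRCr8, 5′ to 3′ on the strand of the gene, and the capitals mark GAGGAA or its reverse complement TTCCTC. They are Cd53 at chr2:197087847-197088146 (minus strand), Cybb at chrX:16065016-16065315 (minus strand) and Slamf6 at chr13:86916706-86917005 (plus strand).
Cd53: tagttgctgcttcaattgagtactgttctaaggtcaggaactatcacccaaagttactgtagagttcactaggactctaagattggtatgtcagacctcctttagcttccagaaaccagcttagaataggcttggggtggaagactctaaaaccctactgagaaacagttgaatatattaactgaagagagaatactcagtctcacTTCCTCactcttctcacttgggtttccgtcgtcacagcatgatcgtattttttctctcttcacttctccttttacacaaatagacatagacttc
Cybb: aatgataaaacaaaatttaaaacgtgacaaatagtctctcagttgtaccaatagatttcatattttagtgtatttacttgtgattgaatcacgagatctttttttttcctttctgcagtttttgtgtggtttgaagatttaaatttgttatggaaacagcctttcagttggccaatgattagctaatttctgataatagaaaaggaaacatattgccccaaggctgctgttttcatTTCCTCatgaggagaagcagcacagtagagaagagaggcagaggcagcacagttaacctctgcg
Slamf6: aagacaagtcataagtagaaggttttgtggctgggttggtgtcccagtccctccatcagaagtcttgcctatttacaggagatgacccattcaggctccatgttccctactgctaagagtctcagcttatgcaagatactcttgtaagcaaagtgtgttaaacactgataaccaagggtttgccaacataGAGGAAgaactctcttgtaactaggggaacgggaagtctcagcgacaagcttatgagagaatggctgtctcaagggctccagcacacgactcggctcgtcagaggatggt
The core begins 44 bases before the start of Cd53, 14 bases before that of Cybb and 60 bases before that of Slamf6. The promoters of Il1rn, Rassf4 and Clec5a, which also fell, hold no match in this window. The core was present in 5 of the 13 genes that fell and had a promoter in the table, in 3 of the 7 that rose, and in 27.6% of all 33469 promoters, searched on both strands. A match describes these letters and does not show a bound factor.

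Cd53 encodes a tetraspanin of the leukocyte surface. Its log2 intensity was 6.24, 6.13 and 6.21 in aluminum replicates 1, 2 and 3, against 7.97, 8.22 and 7.21 in tantalum replicates 1, 2 and 3. The aluminum arrays were nearly alike, and all of them lay below the lowest tantalum array. The gene fell by 1.60 ± 0.28 (log2, SE; adjusted p = 0.00247, limma), or 3.04-fold, the largest change among the probe sets that passed. Without tantalum replicate 1 the adjusted p was 0.0522 and the difference -1.52, and without tantalum replicate 2 they were 0.0944 and -1.40. Without any 1 of the other 4 arrays the gene still passed.

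Cybb encodes the catalytic subunit of the phagocyte NADPH oxidase. It measured 7.84, 7.73 and 7.59 in the aluminum arrays, against 9.42, 10.17 and 7.89 in the tantalum arrays. Tantalum replicates 1 and 2 were high, and replicate 3 lay just above the aluminum arrays. Cybb fell by 1.44 ± 0.30 (adjusted p = 0.0247). Slamf6, a receptor of the SLAM family on lymphocytes, measured 5.04, 4.58 and 5.04 with aluminum, against 6.18, 6.88 and 5.49 with tantalum. It fell by 1.30 ± 0.26 (adjusted p = 0.0101), again with tantalum replicate 3 nearest to the aluminum arrays. Il1rn, the natural antagonist of the interleukin 1 receptor, measured 5.02, 5.65 and 5.02, against 6.96, 7.55 and 5.48. Its groups overlapped, since aluminum replicate 2 exceeded tantalum replicate 3, and it fell by 1.43 ± 0.33 (adjusted p = 0.0395). Without tantalum replicate 2 the differences were -0.93 for Cybb, -0.95 for Slamf6 and -0.99 for Il1rn, and none of the 3 passed. Cybb averaged 9.16 with tantalum, against 7.72 with aluminum and 7.87 to 8.19 with copper, depleted uranium, iron, lead and tungsten at 3 months. Aluminum minus the mean of these 5 metals, chosen after the values had been seen, was -0.33 for Cybb, -0.48 for Slamf6 and -0.39 for Il1rn. None of these passed (limma adjusted p = 0.744, 0.465 and 0.702).

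Other genes fell by less. Rassf4, a protein with a Ras-association domain, fell by 0.94 ± 0.21, and its difference was -0.63 without tantalum replicate 2. Aluminum minus the mean of the same 5 metals was -0.33 for Rassf4 (limma adjusted p = 0.574). Clec5a, a lectin receptor of myeloid cells, fell by 0.77 ± 0.17 (-0.50 without tantalum replicate 1), with aluminum arrays at 3.51 to 3.84 and tantalum arrays at 3.98 to 4.95, near the control probe sets at 4.09. Ripk3, the kinase that drives necroptosis, fell by 0.73 ± 0.16. Its 3 tantalum arrays were within 6.05 to 6.18 and its aluminum arrays within 5.20 to 5.48. Soat1, which esterifies cholesterol for storage, fell by 0.70 ± 0.16. In Ripk3 and Soat1 the tantalum arrays were close together, unlike in Cybb and Slamf6. Soat1 passed in 0 and Ripk3 in 1 of the 6 fits that left out an array, against 2 for Cybb and 3 for Slamf6. The differences of Soat1 and Ripk3 moved less, however. They ran from -0.78 to -0.65 for Soat1 and from -0.79 to -0.64 for Ripk3. Those of Cybb ran from -2.07 to -0.93 and those of Slamf6 from -1.645 to -0.95. In the other settings Soat1 and Ripk3 passed in 6 each, Cybb in 5 and Slamf6 in 4 (13 settings in all, 12 for Slamf6).

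Regulators of muscle cells were also among the genes that fell. Jag1, a ligand of Notch receptors, measured 6.24, 6.23 and 6.86 with aluminum, against 7.41, 7.28 and 7.05 with tantalum. The 2 lowest values were aluminum replicates 1 and 2, and the groups did not overlap. Jag1 fell by 0.80 ± 0.14 (adjusted p = 0.00247), to 1.74-fold below tantalum. It missed the threshold without aluminum replicate 1 (-0.70, adjusted p = 0.118), without tantalum replicate 1 (-0.72, 0.0522) and without tantalum replicate 2 (-0.78, 0.050, just above it). Myod1, the transcription factor that commits cells to the muscle lineage, measured 6.76, 7.51 and 7.27, against 8.15, 7.97 and 8.09. Its tantalum arrays lay close together and aluminum replicate 1 was lowest. Myod1 fell by 0.90 ± 0.20 (adjusted p = 0.0322), and by 0.68 without aluminum replicate 1, where it did not pass.

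Sox6, the repressor of slow-fibre genes, measured 8.49, 9.43 and 9.09 with aluminum, against 9.52, 9.61 and 9.84 with tantalum. Aluminum replicate 1 was lowest and replicate 2 lay just under the tantalum arrays. Sox6 fell by 0.66 ± 0.14 (adjusted p = 0.0276), but by 0.40 without aluminum replicate 1, where it did not pass. Tlcd4, a membrane protein with a TLC domain, fell by 0.71 ± 0.15. Riox2, a histidine hydroxylase of the nucleolus, fell by 0.66 ± 0.14. Pgm2l1, which makes glucose 1,6-bisphosphate, fell by 0.54 ± 0.12, and Dym, a protein of the Golgi, by 0.56 ± 0.13. Dym was the named gene besides Il1rn whose groups overlapped.

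**Figure D1:**
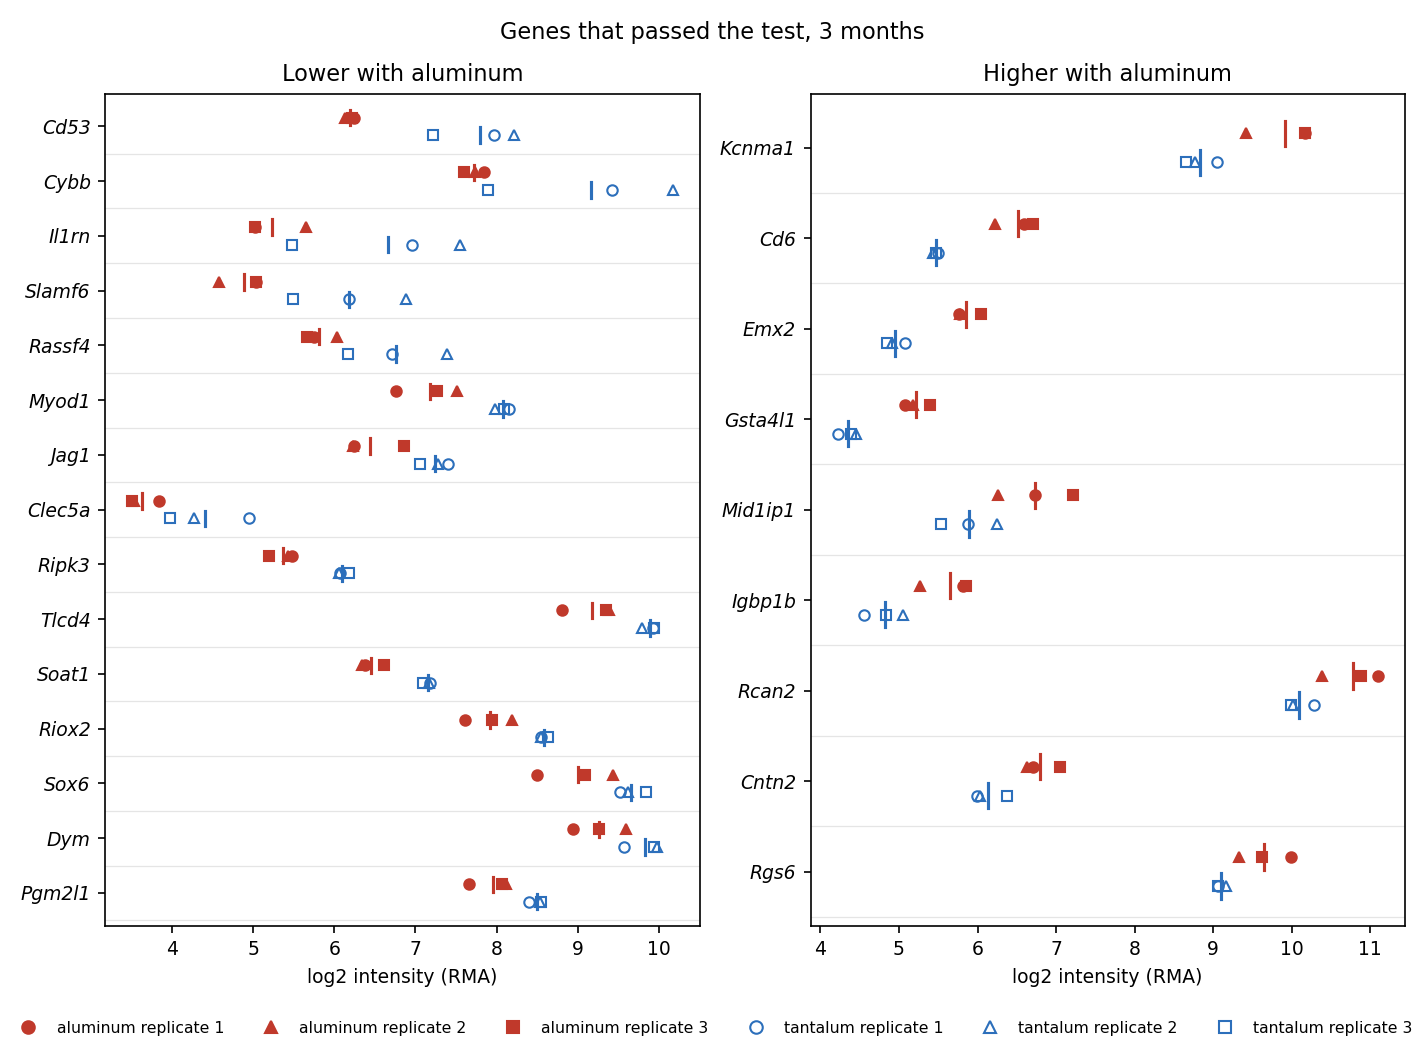
Log2 RMA intensity (x axis) of the 24 named genes that passed the test at 3 months, with filled red symbols for aluminum replicates 1 to 3, open blue symbols for tantalum replicates 1 to 3, and a bar at each group's mean. In Cd53, Cybb, Il1rn, Slamf6 and Rassf4 the tantalum arrays are spread out with replicate 3 lowest, and in Kcnma1, Igbp1b, Rcan2 and Rgs6 aluminum replicate 2 is the aluminum array nearest to tantalum.

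Among the genes that rose, Kcnma1 had the largest difference. It encodes the pore of the large-conductance, calcium-activated potassium channel. It measured 10.17, 9.42 and 10.16 in the aluminum arrays, against 9.05, 8.77 and 8.65 in the tantalum arrays. Aluminum replicates 1 and 3 were highest, replicate 2 stood between them and the tantalum arrays, and the groups did not overlap. Kcnma1 rose by 1.09 ± 0.23 (adjusted p = 0.0207, limma), or 2.13-fold. Cd6, a surface glycoprotein of T cells, measured 6.59, 6.23 and 6.71, against 5.50, 5.43 and 5.47. The tantalum arrays were tight, the aluminum arrays were more spread, and the groups did not overlap. Cd6 rose by 1.04 ± 0.21 (adjusted p = 0.0101), or 2.06-fold. Kcnma1 passed in 1 and Cd6 in 2 of the 6 fits that left out an array.

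Rcan2, a regulator of the phosphatase calcineurin, measured 11.09, 10.38 and 10.88, against 10.29, 10.02 and 9.99. Aluminum replicate 2 again lay nearest to the tantalum arrays, and Rcan2 rose by 0.68 ± 0.15 (adjusted p = 0.0348). Rgs6, which ends signalling by G proteins, measured 9.99, 9.33 and 9.62, against 9.06, 9.17 and 9.06. It rose by 0.55 ± 0.12 (adjusted p = 0.0322), and by 0.38 without aluminum replicate 1, where it did not pass. Igbp1b, a relative of a regulator of protein phosphatase 2A, measured 5.81, 5.27 and 5.85, against 4.56, 5.05 and 4.84. It rose by 0.83 ± 0.16 (adjusted p = 0.00544), the smallest p among the genes that rose, and was the gene that still passed without tantalum replicate 2 (0.95, adjusted p = 0.0112).

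The other genes that rose were dim or moderate in level. Emx2, a homeobox transcription factor, rose by 0.91 ± 0.21, to a mean of 5.86 with aluminum, against 4.95 with tantalum. Gsta4l1, of the glutathione S-transferase family, rose by 0.86 ± 0.20 between means of 5.22 with aluminum and 4.36 with tantalum. Mid1ip1, which promotes fatty acid synthesis through acetyl-CoA carboxylase, rose by 0.84 ± 0.20, and its lowest aluminum array (6.26) lay next to its highest tantalum array (6.25). Without aluminum replicate 3 its difference was 0.61 and it did not pass. Cntn2, an adhesion molecule of axons, rose by 0.66 ± 0.15. Pcbp4, an RNA-binding protein, had a difference of 0.66 ± 0.16 and missed the threshold (adjusted p = 0.067).

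The genes of slow fibres had the widest shift of the 39 gene lists examined, although none of them passed. All 11 measured members of the slow-fibre contractile list were above 0, with a median difference of 0.81, against 0.00311 over all probe sets. An unadjusted p below 0.05 was found for 10 of the 11, each higher, against 5.38% of all probe sets, and in 8 the aluminum arrays all lay above the tantalum arrays. Casq2, the calcium store protein of slow and cardiac muscle, measured 11.44, 10.05 and 11.26 with aluminum, against 9.93, 9.77 and 9.35 with tantalum. Its difference was 1.23 ± 0.44 (adjusted p = 0.228). Aluminum replicates 1 and 3 stood more than 1 log2 unit above every other array of the 6. The troponins of slow fibres had differences of 1.14 ± 0.43 for Tnnc1, 1.07 ± 0.38 for Tnni1 and 0.98 ± 0.37 for Tnnt1. Tpm3, a slow tropomyosin, and Atp2a2, the calcium pump of slow fibres, were at 0.81 ± 0.32 and 0.76 ± 0.30. Csrp3, a Z-disc protein, was at 0.76 ± 0.27, and unlike the rest its 3 aluminum arrays were alike at 11.23, 11.16 and 11.19, against 10.79, 10.33 and 10.17. Myh7, the slow myosin heavy chain, had the smallest difference with Myl3, 0.53 ± 0.28 and 0.53 ± 0.24.

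**Figure D2:**
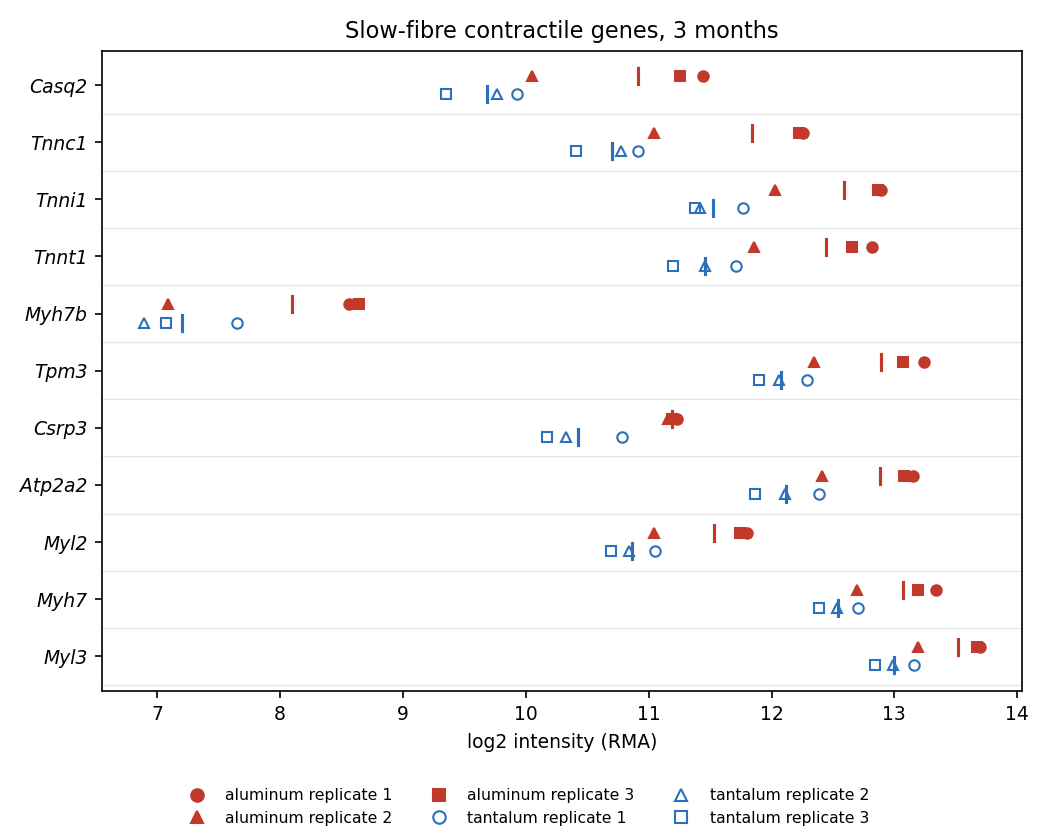
Log2 RMA intensity (x axis) of the 11 slow-fibre contractile genes at 3 months, with filled red symbols for aluminum replicates 1 to 3, open blue symbols for tantalum replicates 1 to 3, and a bar at each group's mean. Aluminum replicates 1 and 3 are the 2 highest arrays for all 11 genes, and for all but Csrp3 aluminum replicate 2 lies closer to the highest tantalum array than to the other aluminum arrays.

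The mean level of the slow-fibre list was 12.22, 11.35 and 12.14 in the aluminum arrays, against 11.30, 11.02 and 10.84 in the tantalum arrays. Aluminum replicates 1 and 3 ranked 1 and 2 among all arrays of the series, and aluminum replicate 2 ranked 41. The tantalum arrays ranked 45, 79 and 88. The other 99 arrays ran from 9.86 to 12.12 with a median of 11.23. In whole muscle RNA, a larger share of slow fibres in the piece taken and more slow-fibre RNA in each fibre cannot be told apart.

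Genes of fast fibres had small negative differences. Of 13 measured members, 12 were below 0, the median difference was -0.13, and none had an unadjusted p below 0.05. Actn3, the alpha-actinin of fast fibres, was at -0.18 ± 0.11 and Myoz1, a Z-disc protein of fast fibres, at -0.28 ± 0.17. The list level was 13.09, 13.32 and 13.18 with aluminum, against 13.29, 13.34 and 13.34 with tantalum. From the top of all arrays of the series, the aluminum arrays ranked 101, 12 and 94 and the tantalum arrays 35, 6 and 2. Among genes of glycolysis and glycogen, 14 of 15 were below 0, with a median of -0.17 and none that passed. Phka1, a regulatory subunit of the muscle phosphorylase kinase, was at -0.43 ± 0.13. Respiratory chain and TCA cycle genes had a median of 0.03 over 19 members, and 15 of the 19 were above 0.

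In the list of regeneration and embryonic contractile genes, 1 of 14 passed, which was Myod1. Actc1, the cardiac actin of developing and slow muscle, measured 10.92, 9.56 and 10.62 with aluminum, against 8.89, 9.19 and 8.82 with tantalum, a difference of 1.40 ± 0.35 that missed the threshold (adjusted p = 0.0686). Tnnt2, cardiac troponin T, was at 0.80 ± 0.24, and Myog, which acts after Myod1 in differentiation, at 0.66 ± 0.19. Myod1 and Myog thus had differences of opposite sign. The embryonic myosin Myh3 was at 0.59 ± 0.21, while Pax7, the marker of muscle stem cells, was at 0.09 ± 0.11. The list's median was 0.09.

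Receptor genes that respond to denervation gave mixed values. Chrnd, a subunit of the acetylcholine receptor, was at 0.80 ± 0.28, with aluminum replicates 1 and 3 at 8.58 and 8.69 and replicate 2 at 7.42, inside the tantalum range of 7.30 to 7.51. Sln, an inhibitor of the calcium pump, was at 1.10 ± 0.42. Mstn, the inhibitor of muscle growth, was at -0.62 ± 0.22, and Ostn, a secreted peptide of muscle and bone, at -1.02 ± 0.37. The ubiquitin ligases of atrophy, Trim63 and Fbxo32, were at 0.08 ± 0.10 and -0.29 ± 0.18. None of the 17 members passed and their median was 0.04. Colq, which anchors acetylcholinesterase at the neuromuscular junction, was at 0.71 ± 0.27, while the median of the 18 genes of calcium handling and the junction was -0.09.

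Small heat shock proteins that are abundant in slow fibres were higher in level. Cryab was at 0.52 ± 0.20 and Hspb6 at 0.47 ± 0.18, and for both the groups did not overlap, but neither passed. The median over the 12 cytosolic heat shock genes was 0.26. In fatty acid oxidation, Ucp3, an uncoupling protein, was at -1.08 ± 0.32 and Lpl, lipoprotein lipase, at 0.76 ± 0.30, and none of 18 members passed (median 0.17). For Ucp3 the aluminum arrays measured 8.72, 10.44 and 10.01, against 10.71, 10.54 and 11.17 with tantalum.

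Macrophage marker genes measured lower with aluminum than with tantalum, again with none that passed. Of 20 measured members, 16 were below 0, with a median difference of -0.44. An unadjusted p below 0.05 was found for 8, each lower, against 5.72% of all probe sets, and in 6 the aluminum arrays all lay below the tantalum arrays. Lyz2, lysozyme, measured 9.52, 9.77 and 9.86 with aluminum, against 11.35, 11.98 and 10.19 with tantalum. Its difference was -1.45 ± 0.35 (adjusted p = 0.0666), and -1.05 without tantalum replicate 2. Cd68, a lysosomal protein of macrophages, measured 7.13, 7.15 and 7.16, against 8.45, 8.81 and 7.14. Tantalum replicates 1 and 2 were high, and tantalum replicate 3 was level with aluminum. Gpnmb and Spp1, which macrophages at lesions express, also had tantalum replicates 1 and 2 highest and tantalum replicate 3 lowest, with differences of -1.23 ± 0.39 and -1.11 ± 0.37. Differences were smaller for Cd163, Mrc1, C1qa and C1qc of the same list, which were chosen with their values known. They were 0.07 ± 0.21, -0.17 ± 0.24, 0.03 ± 0.11 and 0.15 ± 0.17.

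**Figure D3:**
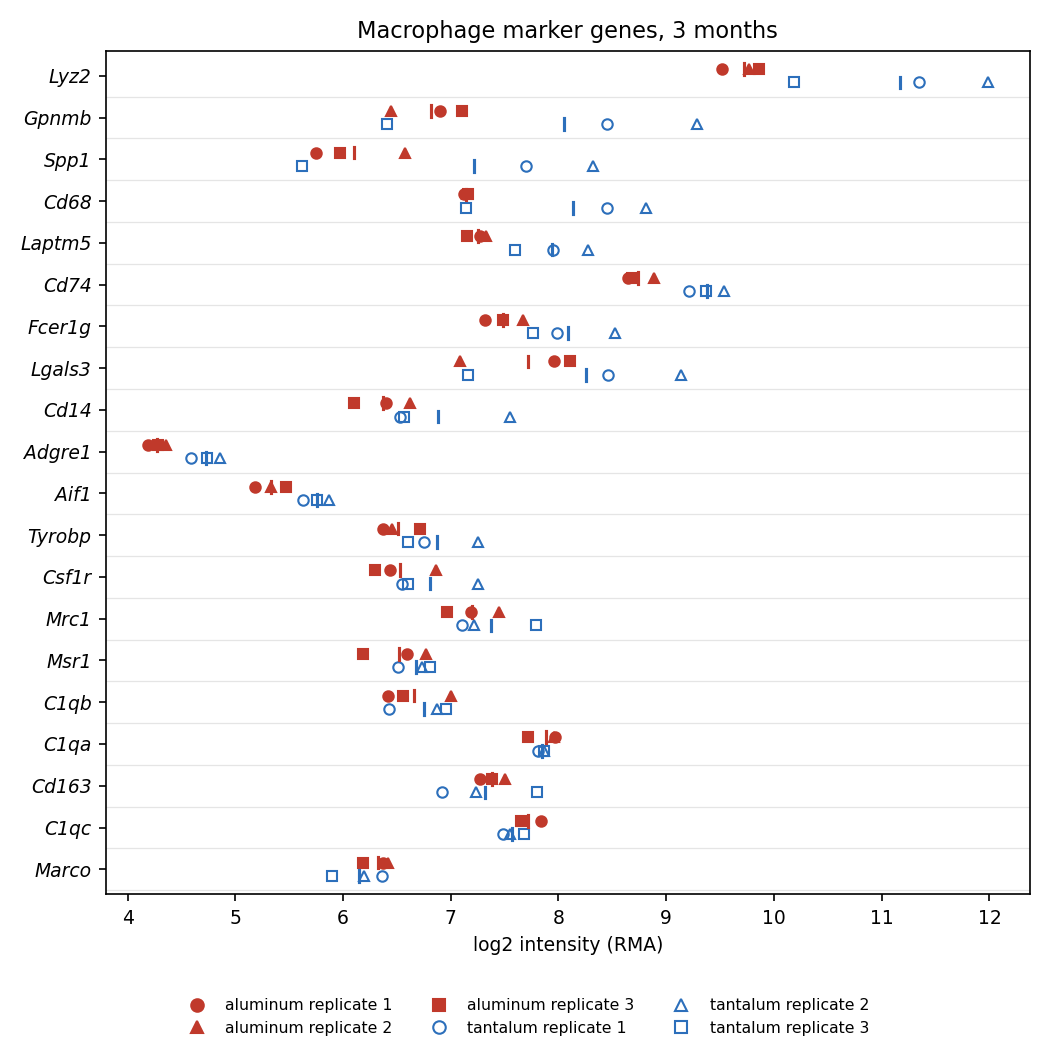
Log2 RMA intensity (x axis) of the 20 macrophage marker genes at 3 months, with filled red symbols for aluminum replicates 1 to 3, open blue symbols for tantalum replicates 1 to 3, and a bar at each group's mean. For Lyz2, Gpnmb, Spp1 and Cd68 tantalum replicates 1 and 2 stand to the right of the other 4 arrays, and the complement and scavenger receptor genes lower in the plot overlap.

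The mean level of the macrophage list was 6.94, 7.07 and 6.95 in the aluminum arrays, against 7.41, 7.82 and 7.12 in the tantalum arrays. Among all arrays of the series the aluminum arrays ranked 66, 44 and 63 from the top, and the tantalum arrays 17, 12 and 39. The median of the other 99 arrays was 6.97, so the aluminum arrays were at the middle of the series and 2 of the tantalum arrays were in its upper part. Fewer macrophages and less of this RNA in each macrophage cannot be told apart here either.

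Products of macrophages and giant cells at implants also differed between the tantalum arrays. Mmp12, the elastase of macrophages, measured 5.51, 6.30 and 7.01 with aluminum, against 9.19, 10.21 and 5.16 with tantalum, so that tantalum replicate 3 was the lowest of the 6. Its difference was -1.91 ± 0.71 (adjusted p = 0.26). Cxcl13, a chemokine that draws B cells, measured 5.49, 6.31 and 6.36, against 8.19, 9.80 and 5.64, and Ccl9, a chemokine of myeloid cells, 5.12, 5.30 and 5.42, against 7.14, 7.69 and 4.86. Tantalum replicates 1 and 2 exceeded the other 4 arrays in each of the 3 genes. Ctsk, the collagen-degrading protease of osteoclasts and giant cells, was at -0.78 ± 0.23 with groups that did not overlap. None of the 9 giant cell genes passed (median -0.12), nor did any of 19 chemokines and cytokines (median -0.15), of which 7 had an unadjusted p below 0.05, each lower, against 5.72% of all probe sets.

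In the inflammasome and interleukin 1 list Il1rn was the 1 gene of 14 that passed, and the median was -0.16. Casp1, which cuts interleukin 1, measured 5.18, 5.72 and 5.32 with aluminum, against 6.11, 6.12 and 6.21 with tantalum, a difference of -0.74 ± 0.22 (adjusted p = 0.133). Il1b was at -0.62 ± 0.22. The antigen-presentation genes Cd74 and RT1-Da were at -0.64 ± 0.26 and -0.55 ± 0.23, and in the MHC class II list 6 of 7 were below 0 (median -0.22, none passed).

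Markers of lymphocytes and granulocytes gave values of both signs. In the list of T, NK and B cells 11 of 17 genes were above 0, with a median of 0.12. Cd3e, a chain of the T cell receptor complex, was at 0.40 ± 0.21 (adjusted p = 0.491), while Cd3g, another chain, was at -0.35 ± 0.23. The leukocyte phosphatase Ptprc was at -0.79 ± 0.33 and the T cell co-receptor Cd4 at -0.38 ± 0.27, both with all aluminum arrays below the tantalum arrays. Cd6 thus rose while the T cell markers of that list did not pass in either direction. Neutrophil genes had a median of 0.22 over 11 members. S100a8 was at -0.56 ± 0.20 and Ncf1, an NADPH oxidase subunit, at 0.74 ± 0.25, opposite in sign to Cybb of the same complex. Cd3g and S100a8 were near the control probe sets at 4.09, which limits what they show. Their means with aluminum and tantalum were 3.70 and 4.05 for Cd3g, and 3.84 and 4.40 for S100a8. Complement genes were below 0 in 11 of 11, but with a median of -0.12 and 1 unadjusted p below 0.05. Interferon-response genes had a median of -0.11 over 19 members.

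Matrix genes differed little. The list of collagens and matrix had a median of -0.02 over 16 members with none that passed, although Tnc, the tenascin of wounds and capsules, was at -0.74 ± 0.25, Fn1, fibronectin, at -0.53 ± 0.25 and Timp1, an inhibitor of metalloproteases, at -0.43 ± 0.20. Tantalum replicate 2 was the highest array for Fn1 (10.88) and Timp1 (7.12).

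Genes that handle metals and oxidants had medians near 0. The metallothioneins Mt1 and Mt2A were at 0.05 ± 0.24 and 0.02 ± 0.24, and the median over 9 genes of metallothionein and zinc transport was 0.02. Targets of the oxidative stress factor NRF2 had a median of -0.04 over 18 genes, with Nqo1 at 0.30 ± 0.18 and Gsta3 at 0.57 ± 0.19, neither of which passed. Genes of iron transport and storage had a median of -0.11 over 17 genes, and the ferritin heavy chain Fth1 was at -0.13 ± 0.10. Over all 39 lists 548 of 637 genes were measured, and Il1rn and Myod1 were the 2 that passed. Over 15 further lists, the respiratory chain among them, medians ran from -0.147 to 0.229, with 7 members higher and 9 lower at an unadjusted p below 0.05 out of 210. Over all probe sets the shares were 5.38% higher and 5.72% lower.

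Whether the genes that passed follow the level of the slow-fibre or the macrophage list was examined in the 99 arrays that the comparison did not use. Fibre and cell content were not measured. Each array's deviation from the mean of its own group (33 groups) was set against the deviation of the list level, for 24 genes and 2 lists, or 48 relations, with 100000 permutations within groups and Benjamini-Hochberg adjustment over the 48. For the slow-fibre list 12 genes had an adjusted p below 0.05, and for the macrophage list 6. How many of the other probe sets would follow either list was not tested. The counts therefore do not set these 24 genes apart from the rest. Kcnma1 followed the slow-fibre list most closely (Pearson r = 0.729, Spearman rho = 0.766, each with permutation p = 1e-05, the smallest that can be given, and adjusted p = 6e-05). Without the 2 arrays farthest from the median list level its r was 0.767. Rcan2 had r = 0.651 and rho = 0.651, Cd6 r = 0.554 and rho = 0.549, and Rgs6 r = 0.524 and rho = 0.55, each with permutation p = 1e-05 and adjusted p = 6e-05 for r and for rho. Without the 2 farthest arrays these 3 had r = 0.671, 0.589 and 0.537. Sox6 ran the other way, with r = -0.617 and rho = -0.622 (permutation p = 1e-05, adjusted p = 6e-05 for each, and r = -0.62 without 2 arrays). Myod1 had r = -0.474 and rho = -0.469 (permutation p = 0.00011 and 8e-05, adjusted p = 0.00044 and 0.000349), and r = -0.45 without 2 arrays.

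Cybb followed the macrophage list with r = 0.879 and rho = 0.878, and Cd53 with r = 0.785 and rho = 0.754 (permutation p = 1e-05, adjusted p = 6e-05 for each). Without the 2 farthest arrays r was 0.863 for Cybb and 0.755 for Cd53. Slamf6 was weaker, with r = 0.393 and rho = 0.35 (permutation p = 0.00221 and 0.00402, adjusted p = 0.00663 and 0.0121), and r = 0.341 without 2 arrays. Il1rn had r = 0.405 and rho = 0.321 (permutation p = 0.00731 and 0.0105, adjusted p = 0.0204 and 0.0281), and r = 0.314 without 2 arrays. Jag1 had r = -0.133 with the slow-fibre list and r = -0.0211 with the macrophage list (rho = -0.102 and -0.039, permutation p = 0.355 and 0.88 for r and 0.429 and 0.755 for rho, adjusted p = 0.55 and 0.88 for r). Igbp1b, Gsta4l1, Clec5a, Ripk3 and Riox2 likewise had no relation that passed with either list. When the level of the slow-fibre list was added to the fit as a covariate, chosen after the values had been seen, 5 of the 27 probe sets still passed, and 3 did with the macrophage list. Cd53, Jag1 and Igbp1b were among them with each of the 2 covariates, and Slamf6 with the slow-fibre level. With the macrophage level the difference of Cd53 was -0.97 (adjusted p = 0.00891), and that of Jag1 was -0.80. A lost call did not always come with a smaller difference. With the macrophage level, which took Cybb to -0.69, Myod1 was at -0.94 and Emx2 at 0.94, and with the slow-fibre level, which took Kcnma1 to 0.63 and Rcan2 to 0.41, Ripk3 was at -0.75.

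Compared with the mean of the 7 other metals at 3 months, with tantalum left out, aluminum differed in 334 probe sets, or 1.46%. Of these 60 were higher (0.261%) and 274 lower (1.19%). Genes of leukocytes led the lower side: Cd53 at -1.45 ± 0.21 (adjusted p = 1.47e-05), Ptprc at -1.18, the interleukin 7 receptor Il7r at -1.11 and Lyz2 at -1.10. This turned on cobalt and nickel, which had high leukocyte genes: Cd53 averaged 6.19 with aluminum, against 10.13 with cobalt, 8.97 with nickel, and 6.56 to 7.33 with copper, depleted uranium, iron, lead and tungsten. With cobalt and nickel left out, an alternative chosen after the values had been seen, 2 probe sets passed (0.00871%) and Cd53 was at -0.69 ± 0.22 (adjusted p = 0.273). The counts with all 7 metals were 33, 349 and 147 without aluminum replicate 1, 2 or 3.

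Jag1 was lowest with aluminum among the 9 metals, at a mean of 6.44, against 6.89 to 7.27 with the 7 other metals and 7.25 with tantalum. Its difference from the 7 metals was -0.56 (adjusted p = 0.00109), and from the 5 without cobalt and nickel -0.53 ± 0.11 (adjusted p = 0.0511). Kcnma1, Cd6 and Igbp1b were highest with aluminum and lowest with tantalum among the 9, as were Emx2, Gsta4l1, Mid1ip1, Rcan2 and Cntn2. Aluminum was also lowest in the other named genes that fell, except Dym. Genes chosen for a difference between aluminum and tantalum tend to have such ranks, so the ranks are no separate support. Kcnma1 averaged 9.92 with aluminum, against 8.95 to 9.49 with the 7 other metals and 8.83 with tantalum, and was 0.71 above the 7 (adjusted p = 0.0137). Cd6 was 0.63 above them (adjusted p = 0.0178), Igbp1b 0.50 (adjusted p = 0.0124) and Rgs6 0.45 (adjusted p = 0.00261). Without cobalt and nickel none of these 4 passed: Kcnma1 was at 0.64 (adjusted p = 0.194), Cd6 at 0.72 (0.0684), Igbp1b at 0.49 (0.162) and Rgs6 at 0.42 (0.0717). On the higher side Zfp385a, a zinc finger protein, at 0.93 and Asb18, a muscle protein with ankyrin repeats, at 0.88 had the largest differences with a name from these 7 metals, and without cobalt and nickel neither passed (adjusted p = 0.245 and 0.171).

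Tantalum itself differed from the mean of the 8 metals in 16 probe sets, or 0.0697%, with 6 higher (0.0261%) and 10 lower (0.0436%). Leaving out tantalum replicate 1 gave a count of 0 (1237 at an unadjusted p below 0.05). Leaving out tantalum replicate 2 gave 1, and leaving out aluminum replicate 1 gave 7. Ccl9 was 1.41 higher with tantalum (adjusted p = 0.0142) and Dym 0.44 higher (adjusted p = 0.0488), and both had their highest mean of the 9 metals with tantalum. Hmox1, which degrades heme, was lower with tantalum, at -1.10 (adjusted p = 0.0304), and the natural killer receptor gene Klrc3 was at -0.82. Cobalt and nickel had the highest levels of both. Hmox1 averaged 5.97 with tantalum, against 9.79 with cobalt, 9.27 with nickel and 5.72 to 7.39 with the other metals, 2 of which were below tantalum. Klrc3 averaged 4.59 with tantalum, against 7.74 with cobalt, 5.90 with nickel and 4.73 to 5.13 with the other metals. For the slow-fibre list aluminum had the highest and tantalum the lowest mean level of the 9 metals, 11.91 and 11.05, with the 7 others from 11.16 to 11.66. For the macrophage list aluminum was lowest at 6.98, and tantalum at 7.45 was below nickel at 8.29 and cobalt at 8.50 alone. These comparisons share arrays with the one between aluminum and tantalum and are not independent of it.

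**Figure D4:**
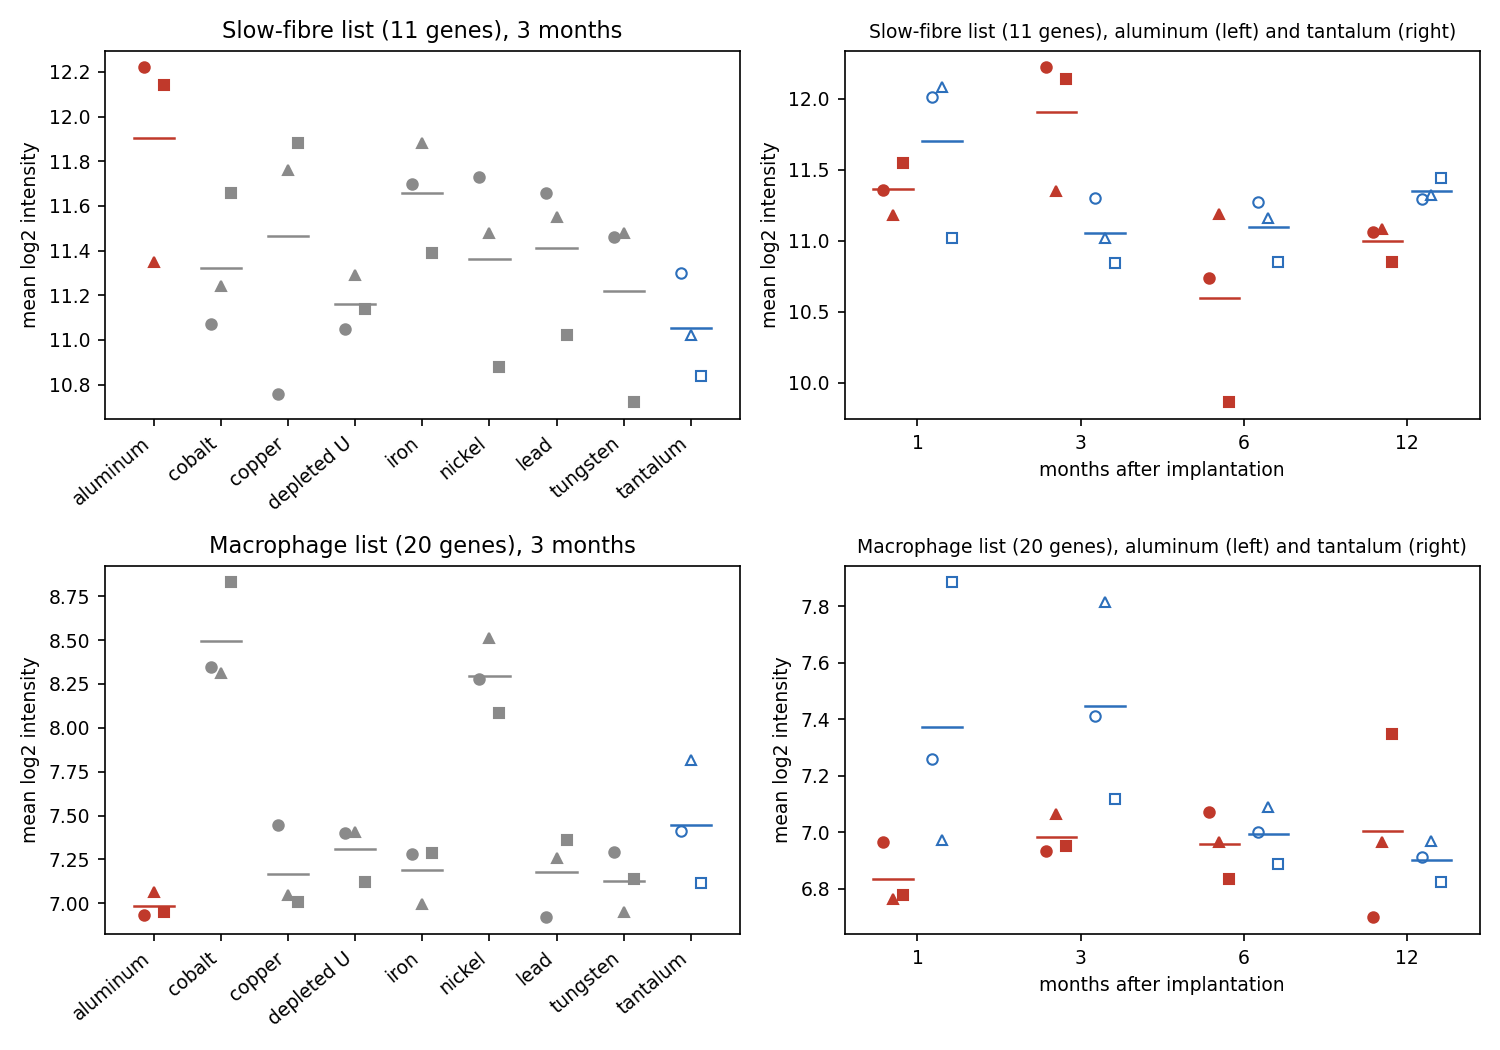
Mean log2 intensity per array (y axes) of the slow-fibre list (top) and the macrophage list (bottom), for the 9 metals at 3 months (left) and for aluminum, drawn left of tantalum, by months after implantation (right). Circles, triangles and squares are replicates 1, 2 and 3 and lines are group means. Aluminum replicates 1 and 3 at 3 months have the 2 highest slow-fibre levels of the arrays shown, and cobalt and nickel have the highest macrophage levels.

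By month, aluminum differed from tantalum in 6, 27, 0 and 0 probe sets at 1, 3, 6 and 12 months (limma). An unadjusted p below 0.05 was found for 1129 probe sets at 6 months and for 2143 at 12 months. The difference at 3 months was tested against the mean difference of the other 3 months, and 45 probe sets passed (0.196%), 35 more positive (0.152%) and 10 more negative (0.0436%) at 3 months. Kcnma1 differed by -0.30, 1.09, -0.28 and -0.15 at 1, 3, 6 and 12 months, so the 3-month value was the positive one, and exceeded the mean of the others by 1.33 ± 0.26 (adjusted p = 0.0135, limma). Jag1 differed by 0.05, -0.80, -0.01 and -0.13, a gap of -0.77 (adjusted p = 0.0233). Slamf6 differed by -0.04, -1.30, 0.37 and -0.03, and Myod1 by 0.32, -0.90, 0.13 and 0.46, and both gaps passed. Kcnma1, Jag1, Slamf6 and Myod1 were chosen by their 3-month difference, which the gap contains, so their gaps are not independent of that choice. Cd53 and Cybb were also below 0 at 1 month, at -0.79 ± 0.28 and -1.08 ± 0.30, where neither passed, and their gaps between months did not pass (adjusted p = 0.105 and 0.234). The count of 45 was 0, 269 and 1 without aluminum replicate 1, 2 or 3, and 43, 3 and 9 without tantalum replicate 1, 2 or 3.

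The slow-fibre list had median differences of -0.30, 0.81, -0.55 and -0.30 at 1, 3, 6 and 12 months. Its sign at 3 months was thus opposite to that of the other months, and at 1 month tantalum replicates 1 and 2, at 12.01 and 12.08, were among the 5 highest arrays of the series. The macrophage list had medians of -0.56, -0.44, -0.05 and 0.07, negative at 1 and 3 months and near 0 afterwards. Its tantalum arrays at 1 month were at 7.26, 6.97 and 7.89, and those of aluminum at 6.97, 6.76 and 6.78.

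**Figure D5:**
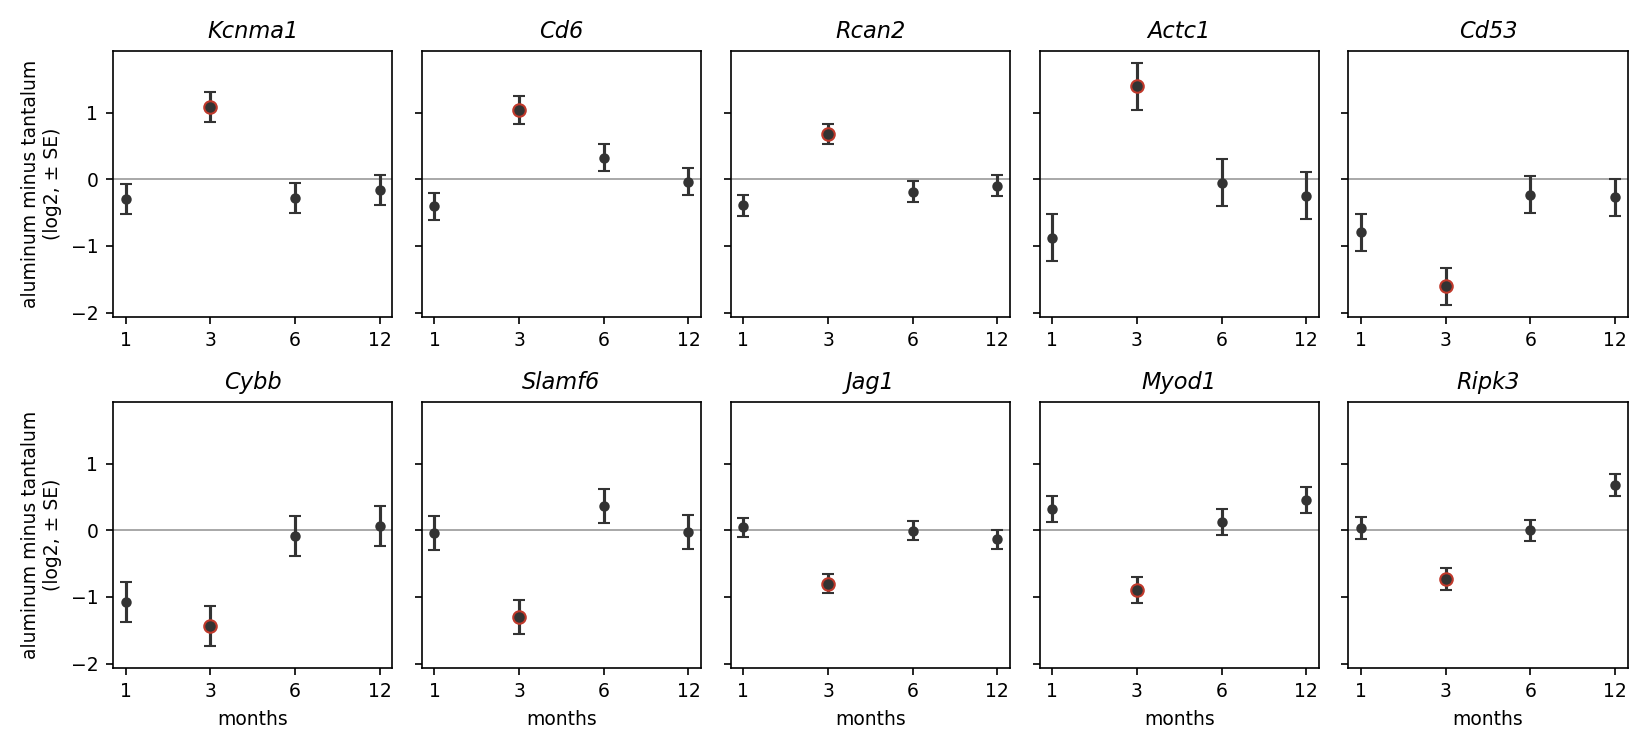
Aluminum minus tantalum (y axis, log2, bars are SE, n = 3 arrays per metal and month) at 1, 3, 6 and 12 months after implantation for 10 genes, with 3 months ringed in red. Kcnma1, Cd6, Rcan2 and Actc1 are above 0 at 3 months and below 0 at 1 month, Slamf6, Jag1, Myod1 and Ripk3 are near or above 0 in the other months, and Cd53 and Cybb are below 0 at 1 month too.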

How the data were processed

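RNA of rat gastrocnemius was hybridised to Clariom S Rat arrays, 3 per metal and month. The deposited log2 values were made with RMA and the R package oligo under R 4.0.1, per the submitters' processing notes. Whether all arrays were normalized in 1 run is not given in the sources used here. Of 22977 probe sets, 23 controls were left out and 22954 tested, with no filter on dim ones. Symbols were matched by gene ID to a RefSeq table of GRCr8: 14855 probe sets had 1 symbol and 8099 none. limma 3.58.1 under R 4.3.3 fitted group means over every array of the series (70 residual and 7.25 prior degrees of freedom). Tests were two-sided, Benjamini-Hochberg adjusted over all probe sets, with 0.05 as the threshold, and checked on simulated data. The number of arrays limits the precision.

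The members, lists and tests were chosen with earlier results of these data known. Genes named are those that passed with the largest differences and groups that did not overlap (10 lower; of the 9 higher, all, with 1 added that did not pass), up to 4 members of each list with the smallest p, further members where a count is shown, and the extreme genes of each other comparison. Dym, Pgm2l1, Sox6 and Riox2 passed but fell outside this rule and were named after their values were seen. Alternatives left out each array, the dimmest 30% of probe sets or other months, and used a replicate block, array weights, a robust eBayes with an intensity trend, a repeated quantile normalization, and a mean of 5 metals or list covariates.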

Additional observations from a re-analysis of the deposited data

Results flagged for a closer look

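The genes below are those named whose difference between aluminum and tantalum at 3 months departed from the mean difference at 1, 6 and 12 months by the test of that gap (limma, adjusted p below 0.05, log2 scale). The gap contains the 3-month difference itself, and over all probe sets 0 such gaps passed without aluminum replicate 1 and 1 without aluminum replicate 3 (1109 and 1592 at an unadjusted p below 0.05).

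Among genes that rose at 3 months the gap was 1.33 for Kcnma1, 1.08 for Cd6, 1.06 for Emx2, 1.07 for Mid1ip1 and 0.91 for Rcan2, and it was 0.82 for Pcbp4, which did not pass at 3 months. Among genes that fell it was -1.40 for Slamf6, -1.20 for Myod1, -0.77 for Jag1, -0.97 for Ripk3, -0.75 for Tlcd4, -0.69 for Sox6 and -0.64 for Pgm2l1.

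Genes that did not pass at 3 months had some of the widest gaps. The gap was 2.29 for Rspo3, a secreted enhancer of Wnt signalling, 2.15 for Sim1, a transcription factor, and 1.79 for Ampd3, an AMP deaminase. It was 1.57 for Zfp385a, a zinc finger protein, and 0.66 for Slc20a2, a phosphate transporter. Rspo3 measured 9.34, 7.92 and 9.29 with aluminum at 3 months, against 7.77, 7.05 and 6.87 with tantalum. Sim1 averaged 5.72 with aluminum and 4.24 with tantalum at 3 months. The tantalum mean was near the control probe sets at 4.09, which limits what the gap of Sim1 shows. The gap was 1.79 for Actc1, whose differences were -0.87, 1.40, -0.05 and -0.25 at 1, 3, 6 and 12 months. It was 1.61 for Prox1, a homeobox factor of slow muscle in mice and of lymphatic vessels. In Prox1 aluminum replicates 1 and 3 were at 7.85 and 7.65 and replicate 2 at 6.26, against 6.32, 5.87 and 6.03 with tantalum. It was -1.05 for Mical2, an enzyme that oxidises actin, and -0.89 for Nmrk1, a kinase of NAD synthesis.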

How the results depend on the processing

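The share of probe sets called is given in the order aluminum minus tantalum, 3 months against other months, aluminum minus 7 metals, and tantalum minus 8 metals. It was 0.118%, 0.196%, 1.46% and 0.0697%, and ranged from 0% to 1.12%, 0% to 1.17%, 0.144% to 1.52% and 0% to 0.0784% with 1 array left out. With array weights the share was 0.383% for aluminum minus tantalum, 0.331% for the months and 0.305% for tantalum minus 8 metals, which was 0.0218% with a repeated quantile normalization. Aluminum minus tantalum gave 0.293% of those tested without the dimmest 30% of probe sets, 0.0566% with the arrays of 3 months alone and 0% with the 6 arrays alone. Added after seeing the data, it gave 0.0218% with the slow-fibre covariate and 0.0131% with the macrophage covariate, and aluminum minus 7 metals gave 0.00871% without cobalt and nickel. The cause of these changes was not tested. Same-numbered aluminum and tantalum arrays correlated at -0.0412, 0.0457 and 0.0408 in their deviations, and not every array correlated best with its own number. At 3 months each array numbered 3 correlated best with arrays of that number in other groups (mean r 0.0725 for aluminum, 0.0465 for tantalum). Arrays numbered 2 did not do so with their number. The labels state no block, and a batch shared by number was not tested. A replicate block gave 0.457%, 0.301%, 2.70% and 0.161%, with all 27 probe sets among those called. No gene that passed changed sign. Of those that did not pass, 3 changed sign with 1 array left out: Cilp2 ran from -0.00462 without aluminum replicate 1 to 0.263, Klrc3 from -0.0155 without tantalum replicate 1 to 0.430, and Atp6v0d2 from -0.601 to 0.0369 without tantalum replicate 2. With the slow-fibre covariate Osr1 turned to 0.0158 and Lpl to -0.0154, and with the macrophage covariate Ctsb turned to 0.0718, Serping1 to 0.0740, C1s to 0.215, C1r to 0.178, Fn1 to 0.0341 and Sfrp4 to 0.204. In at least 1 group Clec5a, Gsta4l1, Igbp1b, Emx2, Slamf6, Il1rn, Ripk3 and Cd6 had means near or below the limit of the dimmest 30% (5.45), and signal over background limits what they show.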

Other observations

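Mast cell genes gave mixed values. Of 14 mast cell and eosinophil genes, 9 were above and 5 below 0, with a median of 0.03, and none passed. Tpsb2, a tryptase of mast cells, measured 6.63, 6.59 and 6.48, against 5.84, 6.24 and 6.01 with tantalum, a difference of 0.54 ± 0.13 that missed the threshold (limma adjusted p = 0.0686). Fcer1a, the alpha chain of the IgE receptor, was at 0.52 ± 0.16 with groups that did not overlap. The protease Mcpt1 lay the other way at -0.23 ± 0.15, again without overlap. Both were near the control probe sets at 4.09, which limits what they show. Their means with aluminum and tantalum were 4.28 and 3.76 for Fcer1a, and 4.12 and 4.35 for Mcpt1.

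Genes of cholesterol synthesis and the daily clock gave small differences. Sc5d and Cyp51, enzymes late in cholesterol synthesis, were at -0.54 ± 0.16 and -0.38 ± 0.14 with groups that did not overlap, and the median over 11 genes was -0.11. Among clock genes Nr1d1 was at -0.49 ± 0.18, Nr1d2 at -0.27 ± 0.11, Bhlhe40 at -0.37 ± 0.11 and Npas2, whose gene NR1D proteins repress, at 0.44 ± 0.14. In these 4 the groups did not overlap, none passed, and the hour of tissue collection is not given in the sources used here. Slc20a2, a phosphate transporter, measured 8.93, 8.52 and 8.89 with aluminum, against 8.35, 8.23 and 8.16 with tantalum (0.54 ± 0.13, adjusted p = 0.0686). Enpp1, which makes pyrophosphate, was at -0.45 ± 0.13.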
